A study of Penicillium oxalicum with 18 samples.

Results

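The genes described are the abundant transcripts of Penicillium oxalicum whose level moved little between strains and media. They were chosen by their own values: of the rows with PDE locus tags, those with a lowest group mean of at least 100 FPKM and a highest group mean of at most 1.5 times the lowest were kept. FPKM is a fragment number scaled by gene length and by the mapped fragments of the library. The rule kept 144 genes, 16.7% of the 860 that met the FPKM limit, in a table of 9277 rows, 9241 of them PDE rows. It also left out 87 PDE rows by tag, of which 1 met both limits. The rule used all 6 groups, so the differences between groups given below describe what was chosen. The counts of genes called by limma, a test fitted over the whole table, use the same values as the rule and are likewise given as a description, from which nothing is read. Shares over all tested genes are for the deposited values of all 18 libraries unless another setting is named.

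The libraries came from wild type strain 114-2, a strain with hap3 deleted and a strain with hap5 deleted. Growth lasted 24 h with 2% glucose or with 1% bran plus 1% microcrystalline cellulose (bran-cellulose) for each strain, after a preculture of 24 h on 2% glucose at 30 °C, and each of the 6 groups held 3 libraries. Every group thus shared the glucose preculture and the wild type groups carried no deletion that the labels name. The labels do not say whether replicates were separate cultures, nor how many transformants stand behind each deletion, so any call rests on library-to-library spread that may be technical.

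Hap3 and Hap5 belong to the Hap complex, which in fungi binds CCAAT sequences in promoters and needs each core subunit for that binding. CCAAT sequences are common in eukaryotic promoters, including those of genes for basic cell functions. Genes that a cell transcribes at a near constant level are used as references for normalising expression measurements, and such use assumes that they stay level under the conditions compared. The files pair no PDE tag with a gene name or function, so the genes are given by tag.

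Library totals ran from 966280 to 1202683 FPKM and rows listed at 0 from 598 to 959; the sequencing depth is unknown. Replicate 2 of the hap3 deletion on glucose stood apart among the 144 genes: 59 of them lay more than 0.3 from their own mean on the log2(FPKM + 1) scale there, 40 above and 19 below, against 3 to 25 genes in each other library. The main counts, spreads and calls that moved without that library are given both ways.

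The limits cut through a continuous range of ratios. Among the 860 abundant genes the ratio of the highest to the lowest group mean had a median of 2.22 and reached 146.6. There were 144 genes at ratios up to 1.5, then 223 up to 2, 297 up to 4, 164 up to 10 and 32 beyond. Just inside the limit stood PDE_03195 at 1.4977, PDE_02479 at 1.4973 and PDE_06849 at 1.4931, and just outside it PDE_09088 at 1.5016, PDE_08196 at 1.5045 and PDE_07326 at 1.5047. At the FPKM limit, the lowest group mean was 100.3 FPKM for PDE_06147 and 102.9 FPKM for PDE_01867, and PDE_07457 and PDE_08270 were left out at 98.5 and 98.3 FPKM. PDE_07457, with group means between 98.5 and 106 FPKM and a ratio of 1.08, was as level as any gene kept except PDE_05981.

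**Figure D1:**
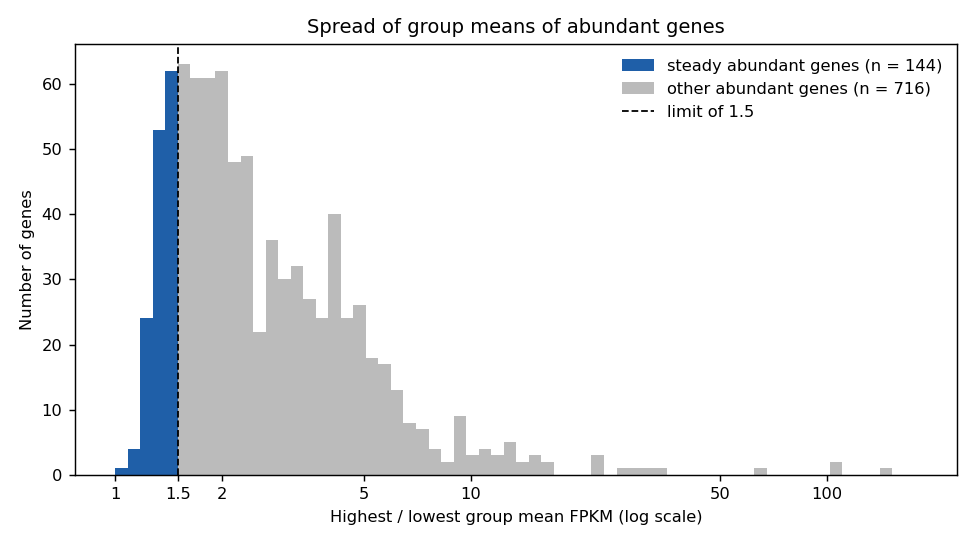
Number of genes (vertical axis) against the ratio of the highest to the lowest of the 6 group means in FPKM (horizontal axis, log scale), for the 144 steady genes (blue) and the other 716 genes with a lowest group mean of at least 100 FPKM (grey, stacked). The dashed line is the limit of 1.5; the bars rise toward it and stay as high just beyond it, so no gap separates the steady genes from the others.

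The 144 genes spanned mean levels from 115 to 2255 FPKM, with a median of 190.1 FPKM. By mean level they ranked between 49 and 1586 among the PDE rows. Most lay near the lower limit: 78 had a mean under 200 FPKM, 32 had at least 300 FPKM and 13 at least 500 FPKM. Steady genes made up 57 of 296 genes (19.3%) with a lowest group mean of 100 to 150 FPKM, 66 of 312 (21.2%) from 150 to 300 FPKM, 19 of 212 (8.96%) from 300 to 1000 FPKM and 2 of 40 (5.0%) above. The share was lower in both upper classes than in the lower ones. Together the 144 genes held between 3.62% and 4.16% of the FPKM total of a library. In wild type that share was 3.73% ± 0.167 (SD, n = 3) on glucose and 4.09% ± 0.0633 on bran-cellulose. In the hap3 deletion it was 3.91% ± 0.0836 and 3.78% ± 0.0181, and in the hap5 deletion 4.08% ± 0.0372 and 3.77% ± 0.0365. All abundant genes together held 47.8% to 67.3% of a library.

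The steadiest genes had moderate levels, with means from 129.8 to 376 FPKM. PDE_05981 had the smallest ratio, 1.08. It stood at 239, 237 and 240.2 FPKM in wild type on glucose and at 228, 223 and 213 FPKM on bran-cellulose. In the hap3 deletion PDE_05981 stood at 253, 215 and 240.2 FPKM on glucose and at 246, 214 and 211 FPKM on bran-cellulose. In the hap5 deletion it stood at 243, 242 and 228 FPKM on glucose and at 229.9, 230.0 and 211 FPKM on bran-cellulose. Of the pairs of groups 3 did not overlap: wild type on glucose lay above wild type and the hap5 deletion on bran-cellulose, and the hap5 deletion on glucose lay above wild type on bran-cellulose. The ratio of its highest to its lowest library was 1.197, the smallest of the 144 genes.

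PDE_01618 came next with a ratio of 1.09. Its group means ran from 152 ± 7.67 FPKM in the hap3 deletion on bran-cellulose to 165 ± 4.57 FPKM in the hap5 deletion on glucose. Replicate 2 of the hap3 deletion on glucose was its lowest library, at 129.7 FPKM beside 169.9 and 169 FPKM in replicates 1 and 3. PDE_09016 (ratio 1.14) was highest in wild type on bran-cellulose, at 230.4 ± 9.92 FPKM, and lowest in the hap5 deletion on glucose, at 202 ± 7.07 FPKM. PDE_03666 (1.15) ran from 219 ± 9.83 FPKM in wild type on bran-cellulose to 252 ± 36.6 FPKM in wild type on glucose. The wild type groups of PDE_03666 overlapped, since its glucose libraries stood at 229, 232 and 294 FPKM and the others at 214, 213 and 231 FPKM.

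PDE_07456 (1.17) was the most abundant of the 10 steadiest, with a mean of 376 FPKM over the groups. It was highest in wild type on bran-cellulose, at 411 ± 28.9 FPKM, and lowest in the hap3 deletion on the same medium, at 350.4 ± 22.2 FPKM. The tag next to it, PDE_07457, is the gene that just missed the FPKM limit. PDE_09171, PDE_03108, PDE_00682, PDE_02756 and PDE_01600 completed the 10, with ratios from 1.182 to 1.204. Over all 18 libraries these 10 genes had ratios of highest to lowest from 1.197 to 1.63, and in 5 of them replicate 2 of the hap3 deletion on glucose was the lowest library. The smallest coefficients of variation (SD over mean) across the 18 libraries were 5.76% for PDE_05981, 6.52% for PDE_01618, 7.80% for PDE_07456, 8.37% for PDE_02756 and 8.45% for PDE_05364. PDE_05364 was lowest in wild type on glucose, at 113 ± 5.32 FPKM, and between 121 ± 14.8 and 136 ± 6.06 FPKM in the other groups.

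**Figure D2:**
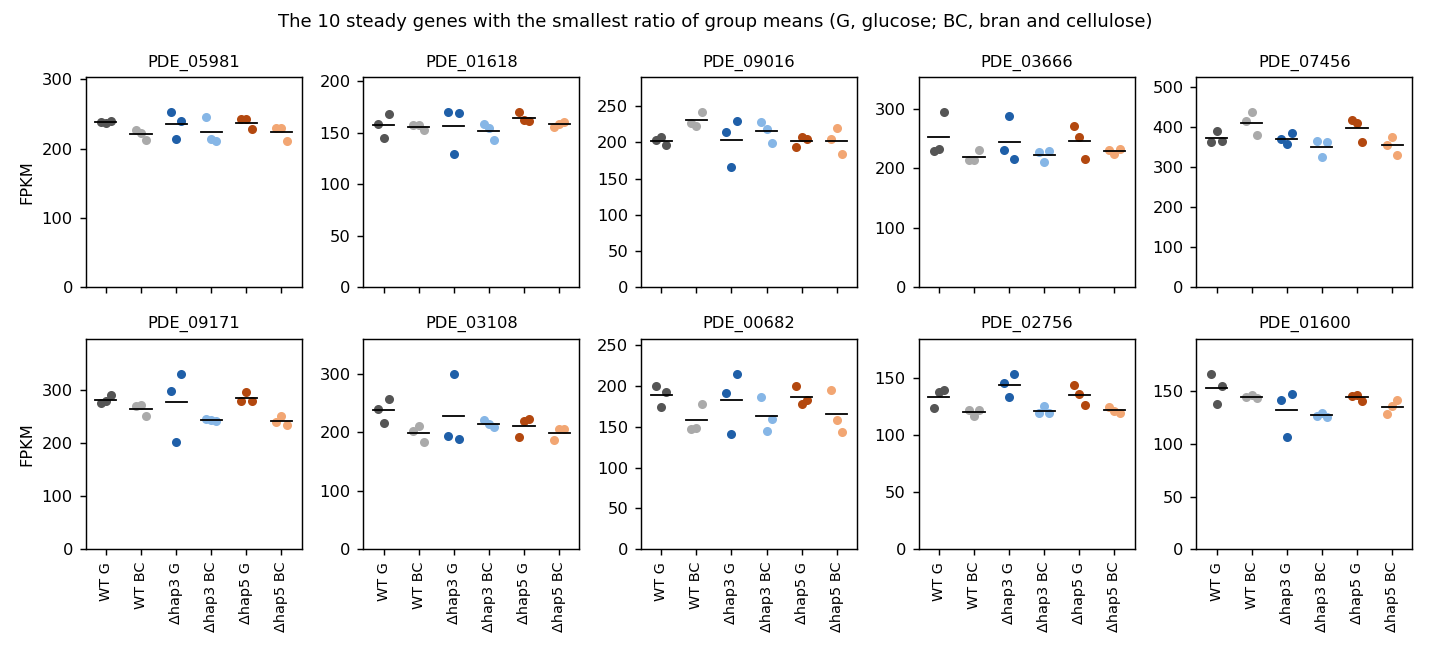
FPKM (vertical axes, from 0) of the 10 genes with the smallest ratio of group means, in each of 3 libraries (points) of 6 groups (G, glucose; BC, bran-cellulose; WT, wild type), with the group mean as a line. Group means of PDE_05981 lie between 221 and 239 FPKM, and the low point of the hap3 deletion on glucose in PDE_01618 is replicate 2, at 129.7 FPKM.

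The 10 most abundant of the 144 genes had means from 805 to 2255 FPKM and ratios from 1.26 to 1.49. The spread between libraries reached 2.26 times among them. PDE_04088, the highest, stood at 2816, 2507 and 2660.2 FPKM in wild type on glucose and at 2202, 2237 and 1832 FPKM on bran-cellulose. In the hap3 deletion PDE_04088 stood at 1840.0, 3975 and 2089.7 FPKM on glucose, where replicate 2 was far above the others, and at 1765, 1757 and 2010.0 FPKM on bran-cellulose. In the hap5 deletion it stood at 1838, 2214 and 2152 FPKM on glucose and at 2206, 2239 and 2241 FPKM on bran-cellulose. Wild type on glucose lay above every other library of PDE_04088 except that replicate 2.

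PDE_03510 had a mean of 1439 FPKM and was highest in wild type on glucose, at 1907, 1707 and 1788 FPKM. On bran-cellulose wild type stood at 1141, 1264 and 1254 FPKM, and the groups did not overlap. In the deletions of hap3 and hap5, PDE_03510 was at 1528 ± 263 and 1524 ± 82.6 FPKM on glucose, and at 1235 ± 60.4 and 1326 ± 61.7 FPKM on bran-cellulose. PDE_09714 was highest in wild type on bran-cellulose, at 1349, 1250.2 and 1370.0 FPKM, against 1206, 1098 and 1237 FPKM on glucose. In the hap5 deletion its order was the other way round, at 1273, 1186 and 1192 FPKM on glucose and at 966, 901 and 943 FPKM on bran-cellulose. The wild type media of PDE_09714 overlapped after median-of-ratios scaling. PDE_05263 was at 1388 ± 289 FPKM in the hap5 deletion on glucose, with libraries at 1098, 1675 and 1391 FPKM, and at 946 ± 102 FPKM in the hap3 deletion on glucose. The other abundant members were PDE_05280, PDE_07424, PDE_04907, PDE_01572, PDE_02805 and PDE_09338, with means between 805 and 1051 FPKM. Replicate 2 of the hap3 deletion on glucose was the highest of the 18 libraries in 6 of the 10 most abundant genes.

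Over the 18 libraries the ratio of highest to lowest had a median of 1.59, and 42 of the 144 genes kept within 1.5 times, 122 within 2 times and 143 within 3 times. Without replicate 2 of the hap3 deletion on glucose, 68 genes kept within 1.5 times and the highest ratio fell from 14.6 to 2.82. The gene at 14.6 was PDE_02747, which stood at 477, 32.8 and 442 FPKM in the hap3 deletion on glucose. In the other 5 groups PDE_02747 lay between 262 and 476 FPKM, so that a single library set its mean in that group, 317 ± 247 FPKM. Without that library its ratio of group means was 1.495, still inside the limit, with the hap3 deletion on glucose no longer among its lower groups.

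PDE_03132 varied in every group. It stood at 244, 128 and 86.6 FPKM in the hap5 deletion on bran-cellulose and at 194, 154 and 97.9 FPKM in that strain with glucose. Its hap3 deletion libraries from bran-cellulose had 146, 215 and 117 FPKM. Its coefficient of variation within groups averaged 29.9%, the highest of the 144 genes, and its small ratio of means (1.29) averages over libraries that differ by up to 2.82 times. PDE_03195 stood at 112, 278 and 156 FPKM in the hap3 deletion on glucose and between 98.1 and 168 FPKM in every other library. PDE_06522 and PDE_05909 were the other genes of large spread, with coefficients of 17.5% and 14.8%.

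The median coefficient of variation within a group was 5.76% over the 144 genes and 6 groups, beside 7.08% for the 716 other abundant genes. By group it was 7.07% in wild type on glucose, 4.46% in wild type on bran-cellulose, 11.9% in the hap3 deletion on glucose, 4.86% in the hap3 deletion on bran-cellulose, 6.15% in the hap5 deletion on glucose and 4.88% in the hap5 deletion on bran-cellulose. The other abundant genes had the higher median in each group, with 14.1% in the hap3 deletion on glucose. The rule was applied to means of the same libraries, so these spreads describe the chosen genes and were not tested against the others. Of the 40 genes with a coefficient over 20% in some group, 31 had it in the hap3 deletion on glucose. Without replicate 2, the other 2 libraries of that group gave a median coefficient of 4.48% and 5 genes over 20%.

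**Figure D3:**
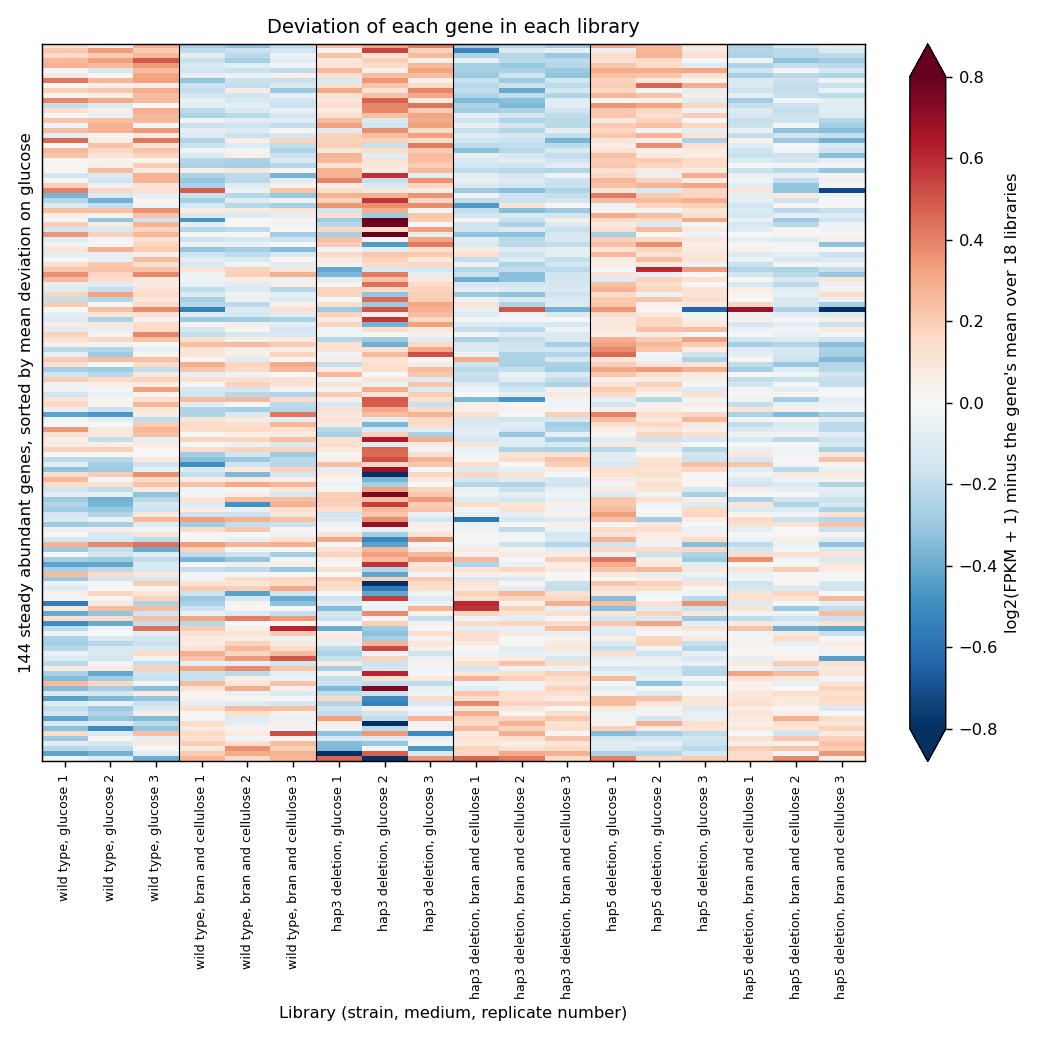
Deviation of each of the 144 steady genes (rows, sorted by mean deviation on glucose) from its own mean over 18 libraries, as log2(FPKM + 1), in each library (columns, by group and replicate number); red is above and blue below the mean. The column of replicate 2 of the hap3 deletion on glucose holds 59 genes beyond 0.3, more than any other.

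On glucose the median deviation of the 144 genes from their own means was 0.0127 ± 0.0686 (SD, n = 3) in wild type, 0.116 ± 0.047 without hap3 and 0.0856 ± 0.0339 without hap5, on the log2(FPKM + 1) scale. On bran-cellulose it was -0.037 ± 0.0259, -0.088 ± 0.0244 and -0.0611 ± 0.0174. The libraries of each deletion on glucose lay above those of the same strain on bran-cellulose, while in wild type glucose replicates 1 and 2 lay within the range of the other medium. The highest group mean fell on glucose and the lowest on bran-cellulose in 86 of 144 genes (59.7%), beside 480 of the 716 other abundant genes (67.0%). The opposite order held for 25 steady genes (17.4%) and 149 of the others (20.8%). Glucose thus held the highest mean more often in either set. In 24 steady genes both extremes were on glucose (16.7%), beside 47 of the others (6.56%). The hap3 deletion on glucose held the highest mean of 49 steady genes (34.0%), beside 260 of the others (36.3%). On bran-cellulose the hap3 deletion held the lowest mean of 45 steady genes (31.25%), beside 180 of the others (25.1%). Without glucose replicate 2 the counts of steady genes were 46 and 44. Wild type on bran-cellulose held the lowest mean of 32 steady genes (22.2%), beside 306 of the others (42.7%).

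Direction between media was compared over the 3 strains. The bran-cellulose mean was lower in all 3 strains for 66 steady genes (45.8%) and higher in all 3 for 16 (11.1%), and the strains differed in sign for 62 (43.1%). Among the other abundant genes the figures were 437 (61.0%), 118 (16.5%) and 161 (22.5%). Both deletions were above wild type on both media for 32 steady genes (22.2%) and below it for 26 (18.1%), beside 233 (32.5%) and 136 (19.0%) of the others. The rule limits how far group means can lie apart, so these shares describe the choice.

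Bran-cellulose against glucose gave a median difference of -0.054 in wild type (SD over replicate numbers 0.0521), -0.184 without hap3 (0.0918) and -0.149 without hap5 (0.0226), on the log2(FPKM + 1) scale. The medians over all 8681 tested genes were 0.157, 0.046 and -0.073. In wild type the median of the steady genes was 0.0013 after quantile normalization and -0.197 after median-of-ratios scaling, and without hap3 and hap5 it stayed below 0 under either. A ratio of 1.5 is 0.58 on the log2 scale, and of the 144 genes only PDE_02747 lay beyond it in any of the 9 comparisons, at 1.19 here in the hap3 deletion. Its group mean of log2 values there includes the library at 32.8 FPKM. limma called 24 steady genes higher and 28 lower on bran-cellulose in wild type at an adjusted p under 0.05 with no minimum change. Over all tested genes 70.8% were called, 41.9% higher and 28.9% lower. This split depended on scaling: median-of-ratios scaling gave 6 higher and 63 lower, and quantile normalization 35 and 30. All tested genes then gave 3329 higher and 2965 lower of 8674, and 2843 and 3536 of 8678. Without wild type glucose replicate 1 the steady genes split 11 and 27, and all 8651 tested genes 3413 and 2396. In the hap3 deletion 10 steady genes were called higher and 63 lower, beside 70.2% of all tested genes called, 37% higher and 33.2% lower. Quantile normalization gave 21 higher and 45 lower, beside 2642 and 3552 of 8678 tested genes. In the hap5 deletion 5 were called higher and 46 lower, beside 62.8% of all tested genes called, 28.1% higher and 34.7% lower. Median-of-ratios scaling gave 11 and 26 there, and quantile normalization 15 and 37. All tested genes then gave 2844 and 2628 of 8674, and 2426 and 3288 of 8678.

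The deletions differed from wild type by a median of 0.058 (hap3, SD 0.0361) and 0.077 (hap5, SD 0.126) on glucose, where all tested genes had medians of 0.136 and 0.236. On bran-cellulose the medians were -0.053 (SD 0.0298) and -0.0197 (SD 0.0161), and 0.051 and 0.039 over all tested genes. The glucose medians changed sign under median-of-ratios scaling, to -0.086 and -0.172. On glucose 41 steady genes were called higher and 16 lower in the hap3 deletion, beside 59.6% of all tested genes called, 38.1% higher and 21.5% lower. The balance turned to 15 higher and 36 lower by median-of-ratios scaling, while quantile normalization gave 31 and 24. All tested genes then gave 2785 and 2596 of 8674, and 2637 and 2659 of 8678. Without replicate 2 of the hap3 deletion the steady genes split 49 and 23. The percentages above are for all 18 libraries and not for that fit. In the hap5 deletion on glucose 33 were called higher and 11 lower, beside 59.8% of all tested genes, 42% higher and 17.8% lower. It turned to 5 higher and 55 lower by median-of-ratios scaling, while quantile normalization gave 24 and 19. All tested genes then gave 2711 and 2476 of 8674, and 2480 and 2645 of 8678. The 44 calls on the deposited values became 28 without wild type glucose replicate 1, beside 4724 of 8651 tested genes. They became 67 without replicate 2 of the hap3 deletion on glucose, which enters through the shared estimate of spread. The calls over all tested genes in that fit are not given, so the rise is not read as a trait of the steady genes. On bran-cellulose 17 were called higher and 30 lower in the hap3 deletion, beside 65.5% of all tested genes, 35.5% higher and 30% lower. In the hap5 deletion there were 18 and 30, beside 64.8% of all tested genes, 34.7% higher and 30.1% lower. Without hap5 deletion replicate 3 on that medium there were 29 in all, for which no matching share is given. The comparisons of a medium share the wild type libraries.

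The deletions were also set against each other. The median difference of the hap5 from the hap3 deletion was -0.0198 (SD 0.0754) on glucose and 0.0143 (SD 0.0077) on bran-cellulose, where it was -0.0055 after quantile normalization. Leaving out 1 library put the glucose median between -0.0404 and 0.0125. On glucose 3 steady genes were called higher and 6 lower in the hap5 deletion, beside 19.8% of all tested genes called, 13.6% higher and 6.13% lower. The 9 calls became 15 without hap3 deletion replicate 1 on glucose and 16 without replicate 3. The 19.8% is for all 18 libraries, and no matching share is given for these 2 fits. The split was 3 and 12 by median-of-ratios scaling, while quantile normalization gave 6 and 4. All tested genes then gave 894 and 823 of 8674, and 808 and 839 of 8678. On bran-cellulose limma called 0 of the 144 genes at an adjusted p under 0.05, beside 2.17% of all tested genes, 1.27% higher and 0.899% lower. At an unadjusted p under 0.05 limma gave 6 of the 144. No share over all tested genes was counted at that cut, so the 6 are not set against the 2.17%. Over all 6 groups at once, the limma F test called 107 of the 144 genes (74.3%) and 91.8% of all tested genes. It called 126 of the 144 without replicate 2 of the hap3 deletion on glucose. The 91.8% was counted with that library, and no share for the fit without it is given.

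**Figure D4:**
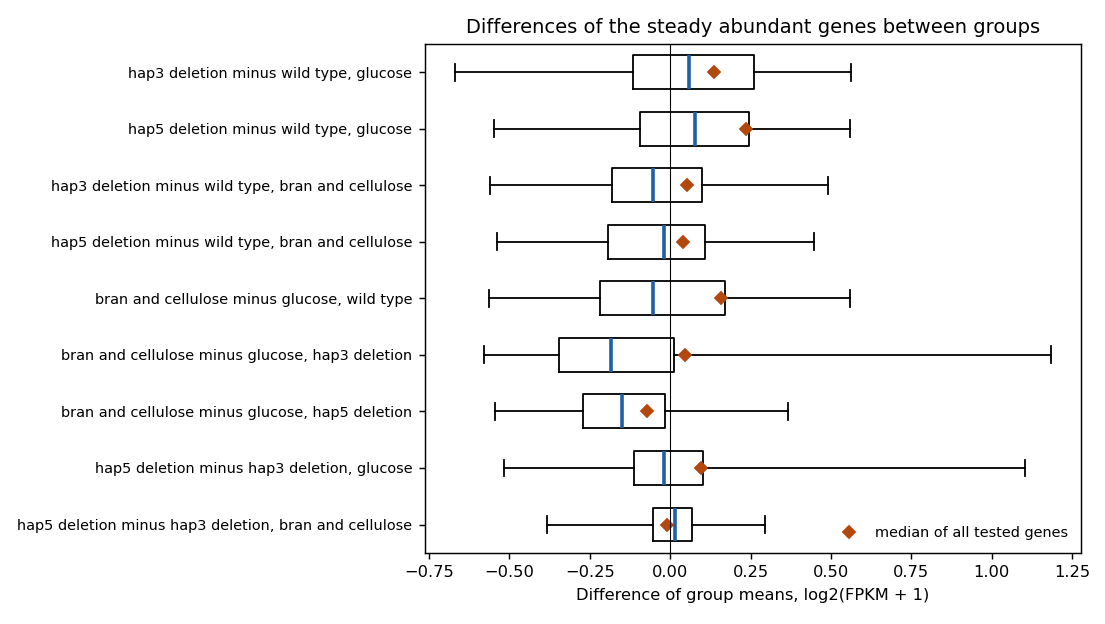
Difference of group means of the 144 steady genes on the log2(FPKM + 1) scale (horizontal axis) in 9 comparisons (rows); the blue line is the median, the box the middle part from the lower to the upper quartile and the whiskers the full range, and diamonds mark the median of all tested genes. Medians of bran-cellulose against glucose are -0.054, -0.184 and -0.149 in wild type and without hap3 or hap5, and the long whiskers to 1.19 and 1.10 are PDE_02747.

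All 9 glucose libraries lay above all 9 bran-cellulose libraries in 11 genes, beside 11.7% of all tested genes. These were PDE_01008, PDE_01829, PDE_01875, PDE_02366, PDE_02479, PDE_03458, PDE_04764, PDE_05280, PDE_07694, PDE_07822 and PDE_08782, chosen after their values were seen. PDE_07822 stood at 392, 404 and 421 FPKM on glucose in wild type and at 334, 302 and 339.9 FPKM on bran-cellulose. In the hap3 deletion PDE_07822 stood at 411, 380.0 and 419 FPKM against 295, 300.5 and 285 FPKM, and in the hap5 deletion at 389, 424 and 386 FPKM against 296, 302 and 303 FPKM. PDE_05280 was at 1049 ± 54.9, 1240.2 ± 64.2 and 1197 ± 71.6 FPKM on glucose in wild type and the hap3 and hap5 deletions, and at 949 ± 24.3, 945 ± 25.4 and 927 ± 14.2 FPKM on bran-cellulose. Wild type had the smallest gap between media in PDE_05280. After median-of-ratios scaling 8 of the 11 genes were still apart, and after quantile normalization 6.

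The reverse order held for 1 gene, PDE_07482, beside 14.1% of all tested genes. It stood at 166, 169 and 194 FPKM in wild type on glucose and at 205, 251 and 221 FPKM on bran-cellulose. Its lowest bran-cellulose library, at 205 FPKM, lay above its highest glucose library, at 196 FPKM. In the hap3 deletion PDE_07482 was at 151, 196 and 141 FPKM and at 221, 211 and 217 FPKM, and in the hap5 deletion at 181, 174 and 167 FPKM and at 223, 228 and 224 FPKM. Its groups overlapped after median-of-ratios scaling.

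All 6 wild type libraries lay above all 12 deletion libraries in PDE_00146, PDE_00853, PDE_04834 and PDE_08259, beside 5.05% of all tested genes. PDE_08259 stood at 323, 327 and 347 FPKM in wild type on glucose and at 364, 388 and 371 FPKM on bran-cellulose. Its hap3 deletion libraries were at 259, 294 and 255 FPKM on glucose and at 284, 277 and 289 FPKM on bran-cellulose. Its hap5 deletion libraries were at 262, 269 and 239 FPKM and at 254, 260.1 and 258 FPKM. Its lowest wild type library was 323 FPKM and its highest deletion library 294 FPKM. PDE_00146 was at 318 ± 17.3 and 303 ± 6.66 FPKM in wild type and between 216 ± 19.7 and 224 ± 35.8 FPKM in the 4 deletion groups. PDE_04834 was even within groups (mean coefficient of variation 2.48%), with wild type libraries at 222, 216 and 219 FPKM on glucose and at 213, 211 and 211 FPKM on bran-cellulose. Its deletion libraries lay between 168.7 and 207 FPKM. After median-of-ratios scaling 3 of these 4 genes were still apart. The opposite held for PDE_01867, beside 8.88% of all tested genes, and its libraries overlapped under both other scalings. It lay between 97.7 and 111 FPKM in wild type and between 116 and 196 FPKM in the deletions.

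A single group lay above or below all 15 other libraries in 29 of the 144 genes (20.1%), beside 63.6% of all tested genes. Without replicate 2 of the hap3 deletion on glucose there were 58 such genes. The 63.6% was counted with that library, and a group with fewer libraries lies apart more easily, so the 58 has no matching share. The widest gap was in PDE_08686, where wild type on bran-cellulose stood at 214, 222 and 209 FPKM and every other library between 249 and 325 FPKM. In PDE_02805 the hap3 deletion on glucose stood at 1088, 1102 and 1102 FPKM and the other libraries between 622 and 973 FPKM. In PDE_05143 the same group stood at 345, 509 and 352 FPKM and the others between 242 and 315 FPKM.

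Steadiness was also measured in libraries that the choice did not use. The rule was applied to 2 of the 3 replicate numbers, and the ratio of the highest to the lowest library was measured over the 6 libraries of the number left out. With replicate 1 left out 120 genes were chosen, and 89 of them (74.2%) kept within 1.5 times in replicate 1. With replicate 3 left out 84 of 114 genes (73.7%) did. With replicate 2 left out 75 of 154 genes (48.7%) did, and that number includes the hap3 deletion library that stood apart. The median ratio of group means was 1.36 on the replicates used in each choice. The median ratio of single libraries was 1.395, 1.506 and 1.408 in replicates 1, 2 and 3 when each was left out. These measures are unlike, since a mean over 2 libraries varies less than 1 library. Genes with a ratio over 1.5 and up to 2 on the same 2 replicates came within 1.5 times in 38 of 236 (16.1%), 12 of 217 (5.53%) and 51 of 218 (23.4%). Genes chosen thus came within the limit at a higher share than genes of the next band, whichever replicate was left out. These shares were not tested. Libraries of a group may be technical repeats, so the shares may not carry over to separate cultures. Of the genes chosen, 113, 126 and 109 were among the 144.

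**Figure D5:**
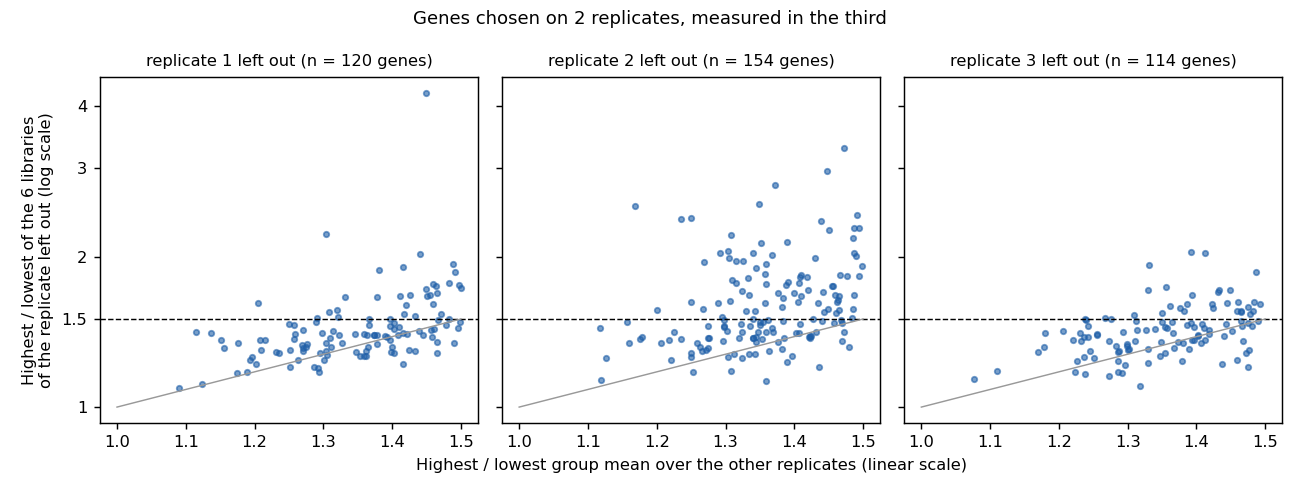
Ratio of the highest to the lowest of the 6 libraries of the replicate number left out (vertical axis, log scale) against the ratio of group means over the other replicates (horizontal axis), for the genes chosen on the latter. The dashed line is 1.5 and the grey line marks equal ratios; 89 of 120, 75 of 154 and 84 of 114 points lie at or under the dashed line when replicates 1, 2 and 3 are left out.

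The list itself depended on how libraries were scaled. After median-of-ratios scaling, which sets library levels by the typical gene, 137 genes met the rule and 113 of them were among the 144. Quantile normalization gives every library the same distribution of values. Then 160 met it, 124 of them among the 144, and 99 genes (68.8% of the 144) met it under all 3 scalings. The 10 steadiest genes were all among these 99, with ratios up to 1.36 by median-of-ratios and 1.27 by quantile normalization. Of the 10 most abundant, PDE_02805 and PDE_04907 met the rule under all 3 scalings. PDE_01572 went from a ratio of 1.26 to 1.19 and 1.98, and PDE_03510 from 1.48 to 1.65 and 1.33. Without replicate 2 of the hap3 deletion on glucose the rule gave 162 genes, with 6 of the 144 lost and 24 gained.

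Tags of the steady genes were spread over the numbering, with 9 to 20 genes in each block of 1000 tags. Consecutive tags were PDE_04833 with PDE_04834 and PDE_09914 with PDE_09915. The next or previous tag was an abundant gene for 28 of the 144 (19.4%) and for 156 of the 716 others (21.8%). PDE_09914 was at 241 ± 18.7 FPKM in wild type on glucose and 208 ± 4.01 FPKM on bran-cellulose, where PDE_09915 was at 112 ± 4.84 and 135 ± 6.07 FPKM, the opposite order. In the hap5 deletion both were lower on bran-cellulose, by log2 differences of -0.329 and -0.231. In the hap3 deletion these differences were -0.161 and 0.029.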

How the data were processed

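Per the labels' protocols, short tags beside NlaIII sites, released with MmeI, were sequenced on the Solexa system. The deposited values are FPKM with 2 decimals, per the file headers; division by gene length may be unsuited to tags, changes levels between genes and therefore decides which genes reach 100 FPKM, but leaves ratios of 1 gene between libraries as they are. The sources used here name no aligner, quantifier, build, annotation or strand setting, so overlapping genes and near-identical copies are uncertain. The bran-cellulose columns carry another abbreviation than the sample titles and were matched by elimination; 0 columns were left unmapped.

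The 144 genes, the lists and the tests were chosen with earlier results of these data known. Of 9277 identifiers 0 matched the reference table of strain HP7-1 (9964 genes), so no names, functions or sequences are given. Ratios of low values to wild type glucose replicate 1 within 0.02 log2 units gathered at most 13.0% of the low genes of a library, so relative depth was not recovered. Identical libraries were not found.

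The 8681 genes at or above 1 FPKM in 3 or more libraries were fitted as log2(FPKM + 1) over all 18 libraries with limma 3.58.1 in R 4.3.3 (group means, intensity trend), and p-values were adjusted over all tested genes by the Benjamini-Hochberg method. Fold differences on this scale understate those of low genes. Named genes were the 10 of smallest ratio, the 10 of highest mean, those next to each limit, the 5 of smallest variation over 18 libraries, the 5 of largest spread within groups and the 3 of widest gap between 1 group and the rest. Gene groups by description, planned for annotated identifiers, were not formed. Alternatives were other scalings, limits, pseudocounts and filters, a replicate block and leaving out each library; those on pairwise calls and on libraries fully apart, scaling by the 144 genes, and the effects and extremes given without 1 library or by scaling, were added after the data were seen.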

Additional observations from a re-analysis of the deposited data

Results flagged for a closer look

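In 4 named genes the libraries of the groups compared did not overlap. These genes moved in opposite directions in 2 settings, on the log2(FPKM + 1) scale of the deposited values. These differences were not tested, and all 4 genes were chosen by their group means. Such opposite effects were not counted over all tested genes, and the number of named genes searched is not given. The 4 genes thus have no matching share and are not read as many or few. PDE_09714 was higher by 0.165 on bran-cellulose in wild type and lower in the hap5 deletion (-0.378), a gap of 0.543. PDE_09915 was higher by 0.267 on bran-cellulose in wild type and lower in the hap5 deletion (-0.231), and the hap5 deletion stood above wild type on glucose (0.130) and below it on bran-cellulose (-0.368), a gap of 0.498 in either reading of the same 4 groups. PDE_00853 was higher by 0.1001 on bran-cellulose in wild type and lower in the hap5 deletion (-0.206), a gap of 0.306. PDE_03510 was lower in the hap5 deletion on glucose (-0.241) and higher by 0.121 on bran-cellulose, a gap of -0.361. Scaling changed several of these. After median-of-ratios scaling the 2 effects of PDE_00853 had the same sign (-0.043 and -0.1105), the wild type effect of PDE_09714 was 0.0217 with overlapping groups, and the effect of PDE_03510 on bran-cellulose was 0.111 with overlapping groups. For PDE_09915 the hap5 deletion was then below wild type on both media (-0.118 and -0.378), and quantile normalization gave -0.0091 and -0.376. After quantile normalization the effects of PDE_03510 had the same sign (-0.078 and -0.056). The opposite medium effects of PDE_09915 in wild type and the hap5 deletion kept their signs without overlap under both scalings, at 0.125 and -0.135 after median-of-ratios scaling and 0.159 and -0.207 after quantile normalization.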

How the results depend on the processing

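The rule gave 295 genes at a lowest group mean of 50 FPKM, 57 at 200 FPKM, 23 at the stricter ratio limit tried and 367 at a ratio of 2; leaving out 1 library gave 126 to 162. After median-of-ratios scaling the median log2 differences of the 144 genes were -0.086 and -0.172 for the hap3 and hap5 deletions against wild type on glucose, -0.087 for hap3 on bran-cellulose, -0.197 and -0.053 for bran-cellulose against glucose in wild type and the hap5 deletion, and -0.126 and 0.0395 for hap5 against hap3 on glucose and on bran-cellulose. After quantile normalization they were 0.0113 for hap3 on glucose, -0.055 for hap5 on bran-cellulose, 0.0013, -0.054 and -0.078 for the medium in wild type, hap3 and hap5 deletions, and -0.0055 for hap5 against hap3 on bran-cellulose. The cause of these shifts was not tested. Scaling by the 144 genes left the median of all tested genes at 0.044 and 0.170 for hap3 and hap5 on glucose. The F test then called 96 of the 144, and 7976 of all 8679 tested genes. Leaving out 1 library moved the medians within 0.0241 (without wild type replicate 1) to 0.103 (without hap3 deletion replicate 2) for hap3 on glucose, 0.0433 to 0.135 (without wild type replicate 2 and replicate 3 in turn) for hap5 on glucose, -0.0332 (without hap5 deletion replicate 1) to -0.0116 (without wild type replicate 3) for hap5 on bran-cellulose, -0.075 to -0.0257 (without wild type glucose replicate 1 and replicate 3 in turn) for the medium in wild type, -0.185 to -0.125 (medium in the hap5 deletion) and 0.0014 to 0.0224 (hap5 against hap3 on bran-cellulose). It moved calls within 28 to 67 (hap5 on glucose), 29 to 56 (hap5 on bran-cellulose), 6 to 16 and 0 to 1 (hap5 against hap3 on glucose and on bran-cellulose), genes within 1.5 times over all libraries within 42 to 68, and genes with 1 group apart within 30 to 58. Calls of hap5 against hap3 on glucose were 15 after median-of-ratios scaling, beside 1717 of 8674 tested genes. Genes with glucose fully above bran-cellulose numbered 6 after quantile normalization; the reverse numbered 0 and 3 after median-of-ratios scaling and quantile normalization and 1 to 2 without 1 library. Wild type fully above the deletions gave 7 genes under either scaling, and the reverse 0 under either and 1 to 4 without 1 library. Shares of all tested genes with libraries fully apart were counted only for the deposited values of all 18 libraries. The counts under other scalings or without 1 library thus have no matching share. None is given for the ranges of calls without 1 library either. Of 45 same-number pairs of libraries in different groups, 1 correlated over 0.1 in its deviations from the group means (-0.122 to 0.202). Replicate numbers were therefore not treated as pairs in the main limma fit. The SDs of the median differences over replicate numbers did set libraries of the same number against each other, so they depend on that numbering. With a replicate block the F test called 105 of the 144 genes and 7936 of all 8681 tested genes, and the pairwise calls stayed within 1.5 times their number. Depth is unknown, so no counting error is given for any value.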
